A study of Mus musculus with 16 samples.

Results

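The 6 conventional actin genes of the mouse were followed through pressure overload of the heart with and without the long noncoding RNA Cardinal. They were chosen by symbol (Actc1, Acta1, Acta2, Actg2, Actb and Actg1), with no use of their measured values, and they make up 6 of the 55487 genes in the count table. All 6 had counts in every library and passed the filter on low counts, which kept 18275 genes.

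Poly(A) RNA from the apex of the heart was sequenced in 16 male mice, 4 in each of 4 groups (Ctrl and KO mice, each after sham operation or TAC). Ctrl mice are wild type per the labels, and KO mice lack Cardinal (annotated as Gm12295) in every cell of the body, so an effect in cardiomyocytes cannot be separated from one in other cells. Transverse aortic constriction (TAC) ties the aorta against a needle to load the left ventricle with pressure, sham mice had the same operation without the tie, and all hearts were collected 4 weeks later. No other allele or agent is named in the labels, and neither are the strain and age of these mice. Each library is 1 mouse.

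Actin is the protein of the thin filament in muscle and of the cytoskeleton in all cells. Cardiac α-actin (Actc1) and skeletal α-actin (Acta1) build the thin filaments of striated muscle. Acta1 is abundant in the fetal heart, is low in the adult mouse heart, and its return under load is a classic mark of hypertrophy. Smooth muscle α-actin (Acta2) and γ-actin (Actg2) belong to smooth muscle, and Acta2 is also made by activated fibroblasts. Cytoplasmic β-actin (Actb) and γ-actin (Actg1) are made by nearly every cell type. Serum response factor (SRF) binds the CArG box, a short motif found in front of many actin genes, with its cofactors myocardin (Myocd) and the myocardin-related factors (Mrtfa, Mrtfb), which are held inactive by free actin monomers.

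All 6 genes are protein coding and lie on the minus strand of different chromosomes in GRCm38 (GENCODE M21). Actc1 (ENSMUSG00000068614) lies at chr2:114047282-114053548 and Acta1 (ENSMUSG00000031972) at chr8:123891769-123894751. Acta2 (ENSMUSG00000035783) lies at chr19:34241090-34255590 and Actg2 (ENSMUSG00000059430) at chr6:83512905-83536265. Actb (ENSMUSG00000029580) lies at chr5:142903115-142906754 and Actg1 (ENSMUSG00000062825) at chr11:120345690-120348542. Their annotated exons cover 1618 bases in Actc1, 1536 in Acta1, 2196 in Acta2, 1557 in Actg2, 2679 in Actb and 2658 in Actg1.

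Promoter windows were read for Actc1, Acta1, Acta2 and Actg1, and those of the 3 genes whose window lay mostly outside annotated exons are shown. They come from RefSeq (GRCm38.p6, minus strand, written 5′ to 3′), start 250 bases before the RefSeq transcription start and stop before the first base of an annotated exon. The Actc1 window lies inside the annotated span of the gene given above, outside its annotated exons, and those of Acta1 and Actg1 lie in front of theirs. Capitals mark the CArG box, searched by its name on both strands and read as CC, then 6 bases that are each A or T, then GG.
Acta1, chr8:123894776-123895025: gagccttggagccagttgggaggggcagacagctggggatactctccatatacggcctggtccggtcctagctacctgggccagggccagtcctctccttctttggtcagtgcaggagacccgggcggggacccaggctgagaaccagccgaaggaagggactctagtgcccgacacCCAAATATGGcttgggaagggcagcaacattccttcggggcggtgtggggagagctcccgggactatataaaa
Actc1, chr2:114052888-114053125: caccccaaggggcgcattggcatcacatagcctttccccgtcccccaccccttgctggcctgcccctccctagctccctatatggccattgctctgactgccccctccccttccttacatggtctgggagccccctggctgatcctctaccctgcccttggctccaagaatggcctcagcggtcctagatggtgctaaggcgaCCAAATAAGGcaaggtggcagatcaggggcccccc
Actg1, chr11:120348543-120348745: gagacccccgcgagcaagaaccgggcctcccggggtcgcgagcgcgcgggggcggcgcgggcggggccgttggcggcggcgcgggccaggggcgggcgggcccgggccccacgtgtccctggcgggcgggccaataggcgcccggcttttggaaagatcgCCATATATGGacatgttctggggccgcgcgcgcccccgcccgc

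Each of these 3 windows held 1 CArG box, which began 73 bases before the RefSeq start in Acta1, 47 in Actc1 and 90 in Actg1. Of all 32851 RefSeq promoter windows of 250 bases, 1.467% held at least 1 such box. The Acta2 window held no full CArG box, and as it lay in an annotated exon over 217 of its 250 bases it is not printed. Boxes with 1 base off, a looser match found in 17.461% of all windows, numbered 3 in the Actc1 window, 2 in Acta1, 2 in Acta2 and 0 in Actg1. The MCAT motif (CATTCC or its reverse complement), found in 12.642% of all windows, stood once in the Acta1 window, 46 bases before the start, and once in the Acta2 window, 146 bases before it. The TATAAA motif, found in 12.368% of all windows, was found in the Acta1 window alone among the 4. No overlap between these motifs occurred. These matches are descriptions of sequence, and binding was not measured.

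Facts about the libraries that bear on the values come first. Totals ranged from 53169437 to 79404714 counts, and mitochondrially encoded genes took 21.9% to 28.8% of them. Levels are given as CPM, counts scaled to a common library size with TMM factors. Cardinal was at 0.276 to 0.553 CPM in 7 KO libraries, but the library labelled KO TAC 4 had 377 counts (4.55 CPM), within the range of 2.69 to 8.02 CPM in the 8 Ctrl libraries. It therefore goes against its label, and results on KO TAC libraries are also given without it, with group means and list sums left as they are. The animal numbers of Ctrl TAC 2, 3 and 4 and KO TAC 4 start with 25 and those of the other 12 libraries start with 3, with no meaning stated in the labels. Among TAC libraries this series therefore moves with genotype. No sham library belongs to it, so in Ctrl mice it also moves with operation, and it enters the interaction. Numbers starting with 33 belong to Ctrl sham 4 and KO sham 1, 2 and 3 and to no TAC library. They move with genotype among the sham libraries and with operation, and enter the interaction too. Markers of ventricular cardiomyocytes were abundant, as the label of heart requires, at a summed 38719.5 to 58128 CPM per library over 8 genes. In tissue RNA, fewer cells of a type and less RNA per cell cannot be told apart.

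The 6 genes differed in level by over 4 orders of magnitude, and the order was set by the muscle isoforms. Levels between genes are compared as CPM per kilobase of annotated exon. In Ctrl sham hearts Actc1 stood at 4420 ± 321 CPM per kb (mean ± SD, n = 4), Acta1 at 132 ± 44.2, Actg1 at 60.5 ± 8.87, Actb at 60.2 ± 9.62, Acta2 at 27.0 ± 7.19 and Actg2 at 0.160 ± 0.0878. Actb and Actg1 did not differ beyond their spread in this order, and the other neighbours were separated by more than 1 SD. The order in KO sham hearts was the same, with Actc1 at 4414 ± 248, Acta1 at 151 ± 46.5, Actg1 at 60.2 ± 6.57, Actb at 59.9 ± 7.95, Acta2 at 24.1 ± 2.52 and Actg2 at 0.164 ± 0.0204 CPM per kb. After TAC the order of genes was kept while the distances changed. Acta1 reached 1988 ± 446 CPM per kb in Ctrl TAC hearts and 1917 ± 384 in KO TAC hearts, against 4911 ± 133 and 4601 ± 203 for Actc1. Ranked by CPM per kb among the genes kept, Acta1 moved from places 181 to 402 in the sham libraries to places 28 to 40 in the TAC libraries, and Actc1 stayed between places 20 and 25 throughout.

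**Figure D1:**
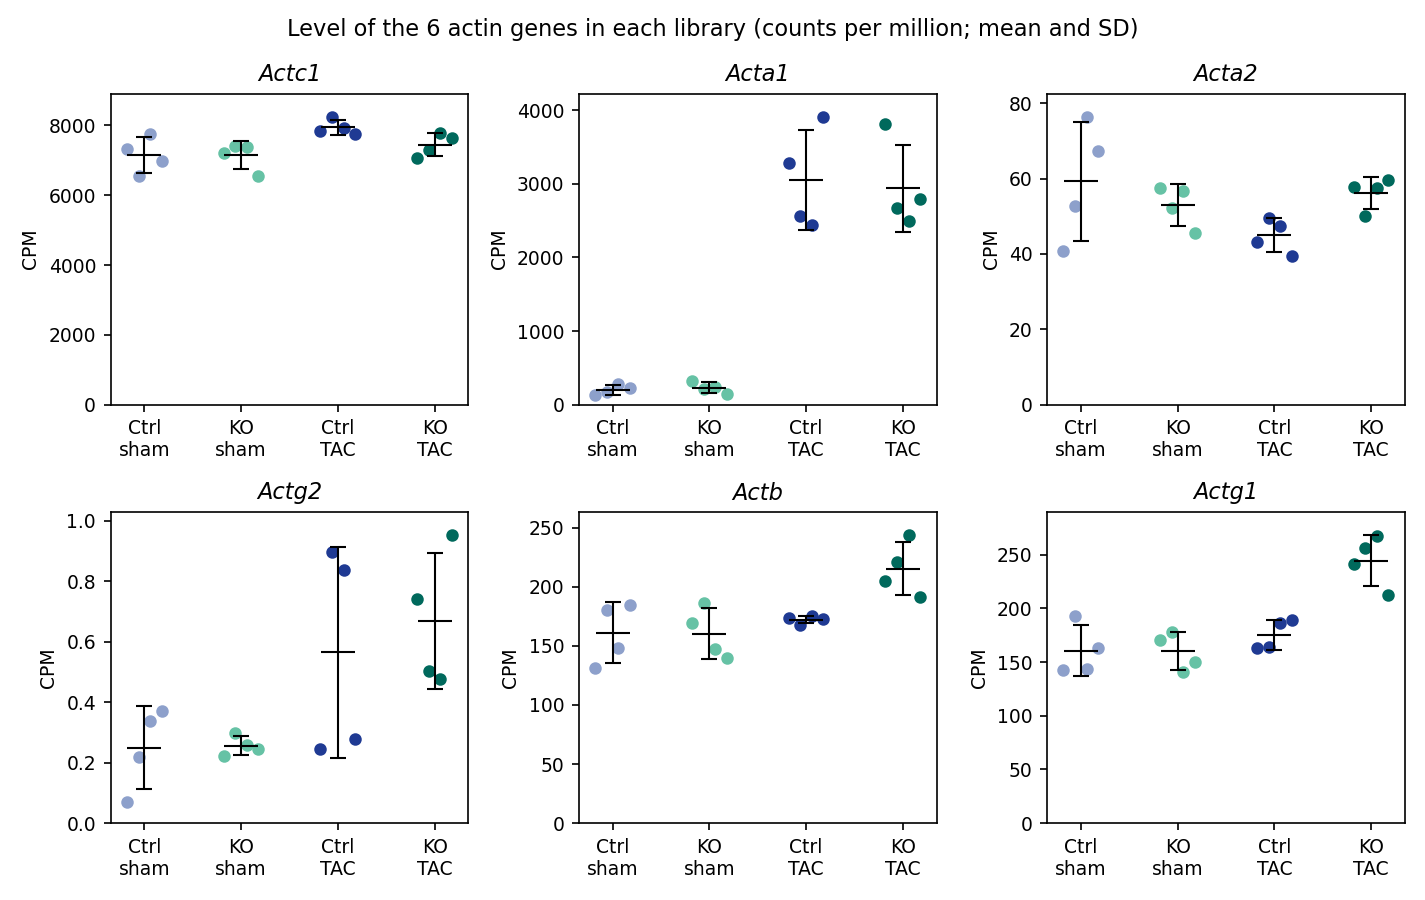
Level of each of the 6 actin genes in CPM (vertical axes, each from 0 and on its own linear scale) in the 4 libraries of each group; points are libraries and the bars show the mean ± SD. All TAC libraries lie far above all sham libraries for Acta1, and the KO TAC libraries lie above the Ctrl TAC libraries for Actb and Actg1.

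Acta1, skeletal α-actin, rose with TAC in both genotypes. It measured 129, 173, 287 and 224 CPM in Ctrl sham 1 to 4 and 324, 213, 242 and 152 CPM in KO sham 1 to 4. It measured 3289.6, 2563, 2448 and 3916 CPM in Ctrl TAC 1 to 4 and 3809.9, 2678, 2494 and 2793 CPM in KO TAC 1 to 4. The lowest TAC library was thus above the highest sham library, and the 2 genotypes overlapped under both operations. The rise was 15.0-fold in Ctrl mice (log2 fold change 3.91, SE 0.30, adjusted p = 1.63e-06, edgeR quasi-likelihood test with Benjamini-Hochberg adjustment, as for all adjusted p below) and 12.7-fold in KO mice (3.66, SE 0.30, adjusted p = 8.34e-07). Without KO TAC 4 the rise in KO mice was 3.69 on the log2 scale (adjusted p = 3.87e-06). With a term for the animal numbers starting with 25 the rise in Ctrl mice was 4.00 (adjusted p = 2.76e-05). Among called genes that were higher after TAC, Acta1 had place 6 of 1898 by log2 fold change in Ctrl mice and place 41 of 3253 in KO mice.

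No effect of genotype on Acta1 passed the test. KO TAC differed from Ctrl TAC by -0.05 on the log2 scale (SE 0.27, adjusted p = 0.947) and KO sham from Ctrl sham by 0.19 (SE 0.27, adjusted p = 1.00). The interaction, which compares the TAC effect in KO mice with that in Ctrl mice, was -0.25 (SE 0.38, adjusted p = 0.863). With KO TAC 4 left out the difference between the TAC groups was -0.03 (adjusted p = 0.979) and the interaction -0.22 (adjusted p = 0.891).

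Actc1, cardiac α-actin and by far the most abundant member, gave no call. It measured 7323, 6538, 7762 and 6979.7 CPM in the Ctrl sham libraries and 7850, 8253, 7919.5 and 7759 CPM in the Ctrl TAC libraries, which overlapped. The difference was 1.11-fold (log2 0.15, SE 0.06, adjusted p = 0.0794). The 8 KO libraries ran from 6556 to 7422 CPM after sham and from 7060.3 to 7780.3 CPM after TAC, with a difference of 0.06 (SE 0.06, adjusted p = 0.471). This difference was 0.05 without KO TAC 4 (adjusted p = 0.631). KO TAC stood at -0.09 on the log2 scale against Ctrl TAC (SE 0.06, adjusted p = 0.422), and at -0.11 without KO TAC 4 (adjusted p = 0.418). The interaction was -0.09 (SE 0.08, adjusted p = 0.733). The Ctrl difference passed without Ctrl sham 3 (0.19, adjusted p = 0.0335) and with DESeq2 (adjusted p = 0.0441). With library totals in place of TMM factors its difference was 0.26 in Ctrl mice (adjusted p = 0.00610) and 0.22 in KO mice (adjusted p = 0.00893), and under that scaling the median of all genes moved to 0.11 and 0.16.

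The isoform make-up of the actin counts differed between operations. Of 389635 to 904200 summed actin counts per library, Acta1 took 1.67%, 2.42%, 3.41% and 2.94% in Ctrl sham 1 to 4 and 28.6%, 22.9%, 22.7% and 32.4% in Ctrl TAC 1 to 4. In the KO groups it took 4.08%, 2.64%, 3.03% and 2.15% after sham and 33.5%, 25.5%, 23.0% and 25.6% after TAC. Group means were 2.61% ± 0.747 and 26.6% ± 4.71 in Ctrl mice and 2.98% ± 0.819 and 26.9% ± 4.56 in KO mice. Counting error was small beside this spread, since the widest 95% Wilson interval of any share reached 0.113 percentage points on either side. The Actc1 share was lower after TAC in the same measure, from 92.4% ± 1.27 to 69.9% ± 4.56 in Ctrl mice and from 92.2% ± 0.941 to 68.4% ± 4.30 in KO mice. The 6 shares are parts of 1 whole, so a higher Acta1 share lowers the others, and the level of Actc1 itself was not lower after TAC (7151 and 7945 CPM in Ctrl sham and Ctrl TAC, 7142 and 7445 CPM in KO sham and KO TAC). Per Acta1 count there were 27.1 to 56.6 Actc1 counts in Ctrl sham libraries and 1.98 to 3.24 in Ctrl TAC libraries, and 22.3 to 43.3 and 1.85 to 3.12 in the corresponding KO libraries.

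**Figure D2:**
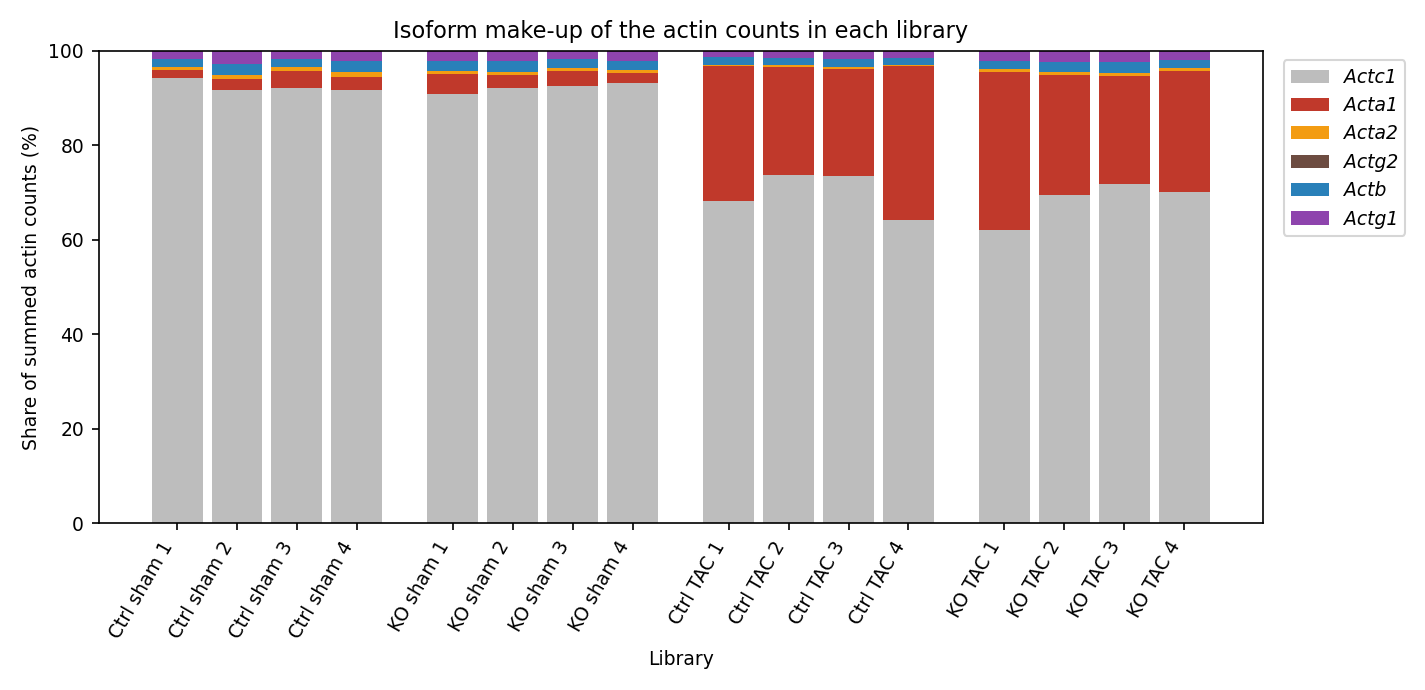
Share of the summed actin counts (vertical axis, percent, linear from 0 to 100) taken by each of the 6 genes in each of the 16 libraries (horizontal axis). Acta1 takes 1.67% to 4.08% of the column in the 8 sham libraries and 22.7% to 33.5% in the 8 TAC libraries.

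The shares were compared with exact two-sided permutation tests of the difference of means over the 70 relabellings of 8 libraries, which can give no p below 0.0286. The Acta1 share reached that smallest p in both genotypes, with a difference of 24.0 percentage points in Ctrl mice and 23.9 in KO mice, and so did the Actc1 share. Adjusted over the 45 tests of composition (9 measures in 5 comparisons), each of these p was 0.0756, as for all 17 tests that gave the smallest p, so none passed the adjustment. The smallest p of these permutation tests can pass that adjustment only when more tests reach it, however large the difference. The Acta1 share differed by 0.26 percentage points between KO TAC and Ctrl TAC (exact permutation p = 0.943, adjusted p = 1.00). The TAC effect in KO mice without KO TAC 4 was 24.4 percentage points on the Acta1 share and -24.4 on the Actc1 share, and KO TAC differed from Ctrl TAC by 0.687 points in the Acta1 share (exact permutation p = 0.857). The sum of the 6 genes also lay higher in every TAC library, at 7735 ± 528 CPM in Ctrl sham and 11392 ± 548 in Ctrl TAC hearts and at 7748 ± 472 in KO sham and 10905 ± 360 in KO TAC hearts (exact permutation p = 0.0286, adjusted p = 0.0756 in both). The sum was 3159 CPM higher after TAC in KO mice without KO TAC 4 (exact permutation p = 0.0286). Dividing the counts by exon length gave Acta1 shares of 2.79% ± 0.799, 28.0% ± 4.87, 3.19% ± 0.876 and 28.4% ± 4.71 in Ctrl sham, Ctrl TAC, KO sham and KO TAC hearts. A test of the sham genotypes gave no p below 0.371 for any of the 9 measures.

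Actg1, cytoplasmic γ-actin, rose with TAC in KO hearts and was higher in KO TAC than in Ctrl TAC hearts. It measured 142, 193, 144 and 163 CPM in Ctrl sham 1 to 4 and 171, 178, 141 and 150 CPM in KO sham 1 to 4. After TAC it measured 163, 164, 186 and 189 CPM in Ctrl 1 to 4 and 241, 256, 267 and 212 CPM in KO 1 to 4. The 4 KO TAC libraries were the highest of the 16, with KO TAC 4, whose label is in doubt, the lowest of them. The rise in KO mice was 1.53-fold (log2 0.61, SE 0.10, adjusted p = 0.000164, and 0.67 with an adjusted p of 0.000106 without KO TAC 4), and in Ctrl mice the difference was 1.09-fold (0.13, SE 0.10, adjusted p = 0.425). KO TAC exceeded Ctrl TAC 1.39-fold (0.48, SE 0.10, adjusted p = 0.0210), whereas the sham groups differed by -0.01 (SE 0.10, adjusted p = 1.00).

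The genotype difference of Actg1 after TAC kept its direction in all 28 alternatives, from 0.43 to 0.54 on the log2 scale, and lost its call in 6 of them. Without KO TAC 4 it was 0.54 (adjusted p = 0.0154). Without Ctrl TAC 2 it was 0.45 (adjusted p = 0.0845), without KO TAC 2 it was 0.45 (adjusted p = 0.0664), without KO TAC 3 it was 0.43 (adjusted p = 0.0820), and without both Ctrl TAC 2 and KO TAC 4 it was 0.51 (adjusted p = 0.0541). With a term for the animal numbers starting with 25 it was 0.44 (adjusted p = 0.135). Within the numbers starting with 3, the 3 KO TAC libraries (241 to 267 CPM) lay above the single Ctrl TAC library (163 CPM). Within those starting with 25 the single KO TAC library (212 CPM) lay above the 3 Ctrl TAC libraries (164 to 189 CPM). That single library is KO TAC 4, whose Cardinal level goes against its label. With a single library on one side of each, these comparisons cannot tell genotype from animal number, and neither was tested. That the TAC response of Actg1 was larger in KO mice was not called when tested itself (interaction 0.48, SE 0.14, unadjusted p = 0.00348, adjusted p = 0.241), nor without KO TAC 4 (0.55, adjusted p = 0.172).

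**Figure D3:**
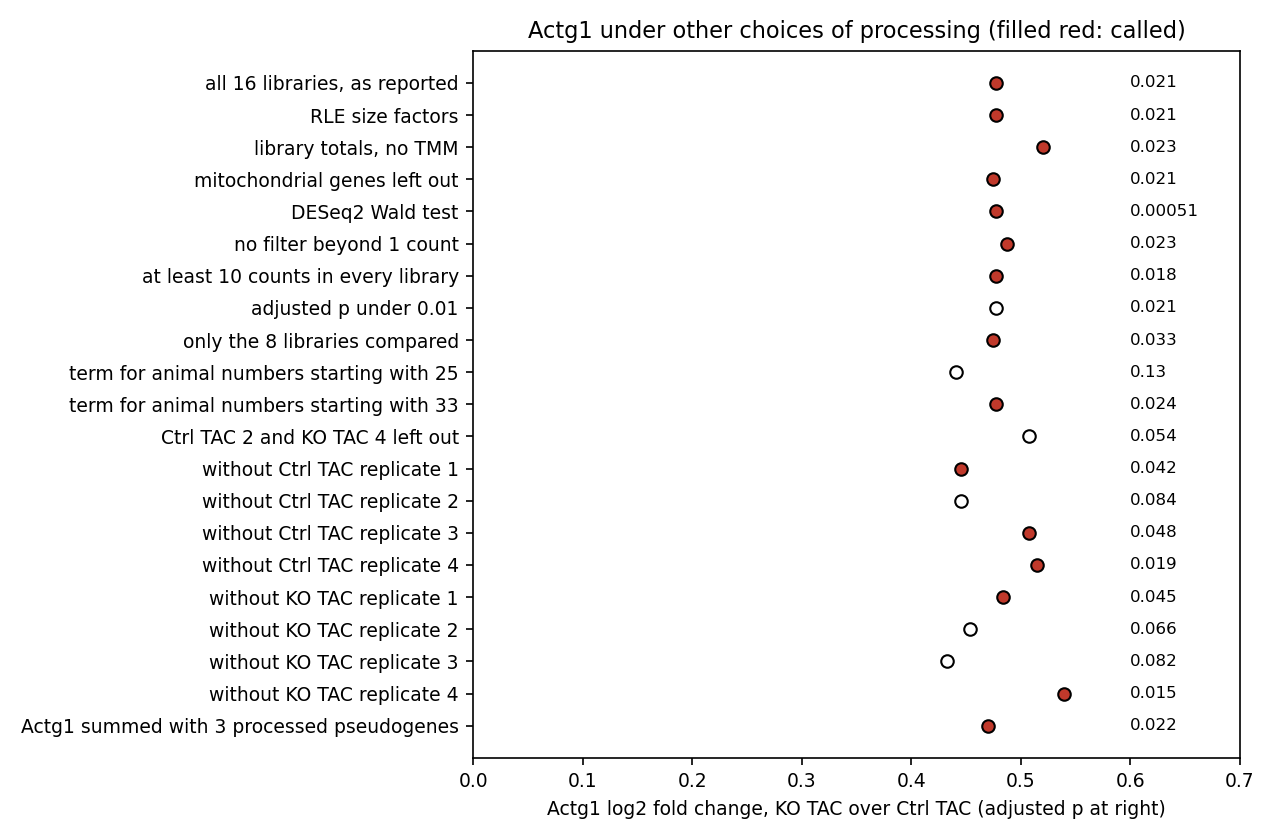
Log2 fold change of Actg1 in KO TAC over Ctrl TAC (horizontal axis) as reported and under 20 other choices of processing or sets of libraries, with the adjusted p at the right; filled points passed the threshold in force. All estimates lie between 0.43 and 0.54, and 6 of them did not pass.

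Part of the Actg1 sequence is shared with other genes. Of its 150-base transcript windows, the read length used, 23.342% also occur in the processed pseudogenes Gm12715, Gm8399 or Gm16385, whereas none of the windows of the other 5 members recur in another gene. Gm12715 (chr4:103563402-103564529) was counted at 13.2% ± 0.971 of the Actg1 count in Ctrl sham and 13.44% ± 1.296 in Ctrl TAC libraries. In KO mice it was at 12.95% ± 0.895 after sham and 12.9% ± 0.210 after TAC. Its log2 fold changes were 0.61 for TAC in KO mice (SE 0.11, adjusted p = 0.000547) and 0.43 for KO TAC over Ctrl TAC (SE 0.11, adjusted p = 0.0542). Reads from these shared stretches cannot be assigned to the gene or its copy. With the 3 pseudogenes added to Actg1, a step chosen after seeing the data, the genotype difference after TAC was 0.47 (adjusted p = 0.0217). At windows of 50 bases, Actb shared 9.122% of its windows, Acta1 2.021% and Acta2 0.326%, and Actc1 and Actg2 shared none.

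Actb, cytoplasmic β-actin and a common reference gene in PCR, took the same course with smaller values. It measured 131, 180, 148 and 185 CPM in Ctrl sham 1 to 4 and 169, 186, 147 and 139 CPM in KO sham 1 to 4. After TAC it measured 174, 168, 175 and 172 CPM in Ctrl 1 to 4, a narrow range, and 205, 221, 244 and 191 CPM in KO 1 to 4. The KO TAC libraries were all above the other 12, and KO TAC 4 was again the lowest of them. Actb rose 1.34-fold with TAC in KO mice (log2 0.42, SE 0.11, adjusted p = 0.00519; 0.48 without KO TAC 4), and in Ctrl mice the difference was 1.07-fold (0.10, SE 0.11, adjusted p = 0.588). KO TAC over Ctrl TAC was 1.25-fold (0.32, SE 0.11, adjusted p = 0.114), which passed only with DESeq2 (adjusted p = 0.0459) among the 28 alternatives and was 0.38 without KO TAC 4 (adjusted p = 0.0929). The interaction was 0.33 (SE 0.15, unadjusted p = 0.0442, adjusted p = 0.436), and 0.38 without KO TAC 4 (adjusted p = 0.371).

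Within the cytoplasmic pair, Actb took 50.02% ± 2.41 of the counts in Ctrl sham, 49.98% ± 1.41 in KO sham, 49.6% ± 1.79 in Ctrl TAC and 46.8% ± 0.845 in KO TAC hearts. Every KO TAC library (45.9% to 47.7%) was at or below the lowest Ctrl TAC library (47.7%). The difference between these groups was -2.76 percentage points (exact permutation p = 0.0286, adjusted p = 0.0756), and -2.95 points without KO TAC 4 (exact permutation p = 0.0571). Over the 16 libraries the log2 CPM of Actb and Actg1 had a Pearson r of 0.925, and 0.822 for deviations from the group means. This is a description over libraries that share their depth and scaling within each point. It was the highest value among the 15 pairs of members, and the α-actin pair had an r of 0.605 over the libraries and 0.194 within groups.

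**Figure D4:**
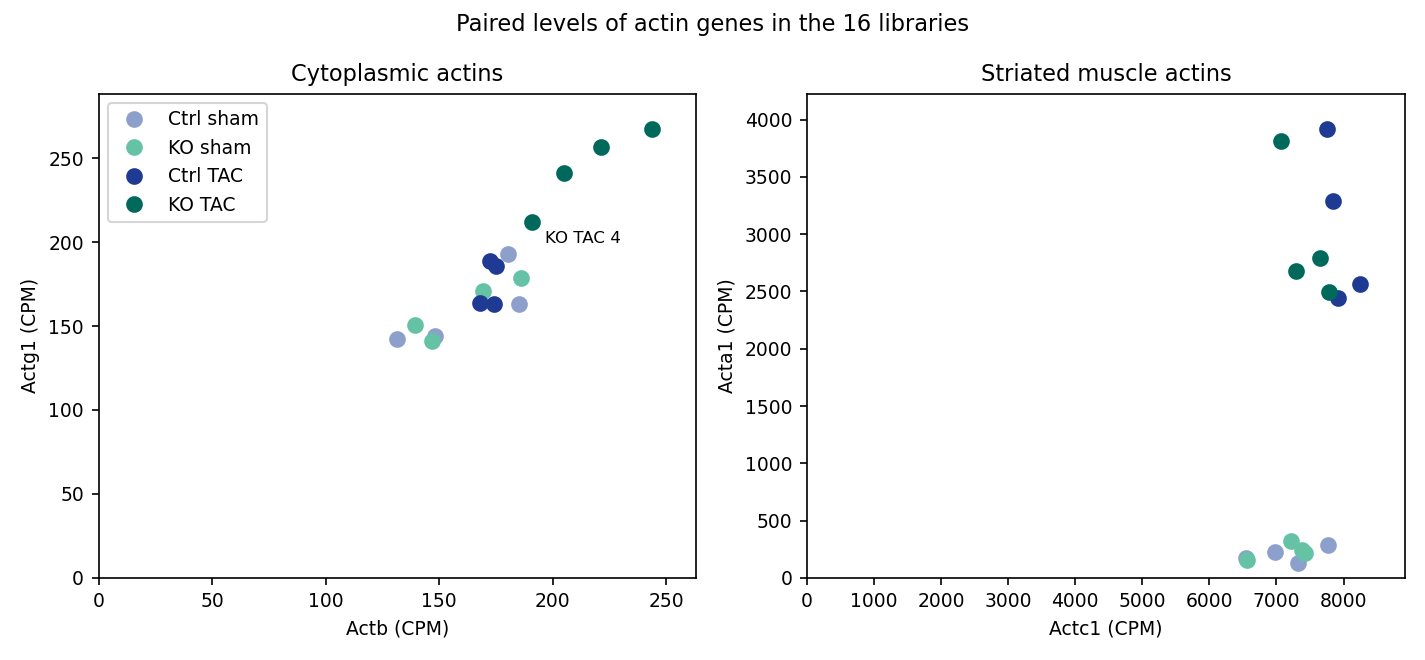
Actg1 against Actb (left) and Acta1 against Actc1 (right), both axes in CPM from 0, 1 point per library coloured by group. The cytoplasmic genes lie along a line with the 4 KO TAC libraries at its upper end, and the α-actins form 2 clouds by operation at nearly the same Actc1 level.

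Acta2, smooth muscle α-actin, gave no call. It measured 40.8, 52.6, 76.4 and 67.4 CPM in Ctrl sham 1 to 4, the widest spread among its groups, and 57.6, 52.3, 56.7 and 45.5 CPM in KO sham 1 to 4. After TAC it measured 43.1, 49.6, 47.5 and 39.5 CPM in Ctrl 1 to 4 and 57.9, 49.99, 57.4 and 59.5 CPM in KO 1 to 4. The TAC groups of the 2 genotypes did not overlap, by a margin under 1 CPM. The TAC difference was -0.40 in Ctrl mice (SE 0.15, adjusted p = 0.0788) and 0.08 in KO mice (SE 0.15, adjusted p = 0.712), and KO TAC over Ctrl TAC was 0.32 (SE 0.15, adjusted p = 0.270). The last pair were, without KO TAC 4, 0.06 (adjusted p = 0.840) and 0.29 (adjusted p = 0.384). The Ctrl difference passed with DESeq2 (adjusted p = 0.0256) and without Ctrl sham 1 (-0.54, adjusted p = 0.00449). The interaction was 0.48 (SE 0.21, unadjusted p = 0.0389, adjusted p = 0.420), and 0.46 without KO TAC 4 (adjusted p = 0.472). As a share of summed actin counts Acta2 was 0.764% ± 0.176, 0.396% ± 0.0563, 0.683% ± 0.0416 and 0.515% ± 0.0301 in Ctrl sham, Ctrl TAC, KO sham and KO TAC hearts.

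Actg2, smooth muscle γ-actin of the gut and other viscera, was near the limit of detection. Its counts were 5, 14, 20 and 19 in Ctrl sham 1 to 4, 14, 17, 15 and 14 in KO sham 1 to 4, 14, 60, 55 and 20 in Ctrl TAC 1 to 4, and 50, 31, 31 and 79 in KO TAC 1 to 4. In Ctrl TAC the counts of libraries 2 and 3 (exact 95% Poisson intervals 45.8 to 77.2 and 41.4 to 71.6, counting error only) lay above those of libraries 1 and 4 (7.65 to 23.5 and 12.2 to 30.9). The KO TAC libraries were all above the KO sham libraries. The log2 fold change with TAC was 1.39 in KO mice (SE 0.46, adjusted p = 0.0243) and 1.21 in Ctrl mice (SE 0.46, adjusted p = 0.0748). The Ctrl difference passed without Ctrl TAC 1 (1.45, adjusted p = 0.0335), without Ctrl TAC 4 (1.44, adjusted p = 0.0438) and with library totals (1.30, adjusted p = 0.0496). The call in KO mice was lost without KO TAC 4 (1.16, adjusted p = 0.0815), without KO sham 1 (1.33, adjusted p = 0.0623), without KO sham 4 (1.37, adjusted p = 0.0562) and without KO TAC 1 (1.34, adjusted p = 0.0517). It was also lost without Ctrl TAC 2 and KO TAC 4 (1.16, adjusted p = 0.0654) and with a term for animal numbers starting with 25 (1.09, adjusted p = 0.0595). No genotype difference passed, and its size after TAC (0.25, SE 0.42, adjusted p = 0.809) turned on single libraries. It was 0.02 without KO TAC 4 (adjusted p = 0.991), 0.01 without Ctrl TAC 1, 0.02 without Ctrl TAC 4, 0.56 without Ctrl TAC 2, 0.50 without Ctrl TAC 3, and 0.80 with the term for numbers starting with 25 (adjusted p = 0.494).

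Counted over the 6 genes, 1 was called for TAC in Ctrl mice, where 20.0% of all genes were called (10.4% higher and 9.60% lower). In KO mice 4 were called, all higher, against a background of 34.3% (17.8% higher and 16.5% lower), and without KO TAC 4 the count was 3. For KO TAC against Ctrl TAC 1 was called, against 2.68% of all genes (1.36% higher and 1.32% lower). None was called between the sham groups, where 0% of all genes were called by edgeR, or for the interaction, where 0.0109% were. Between the sham groups 479 of 18275 genes had an unadjusted p under 0.05, fewer than chance gives on average. Libraries of the 2 groups did not overlap for 1 member in the Ctrl comparison (20.5% of all genes), 4 in the KO comparison (34.6%), 0 between the sham groups (1.78%) and 3 between the TAC groups (10.5%). The comparisons of TAC with sham and of KO with Ctrl share libraries, so their counts are not independent.

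**Figure D5:**
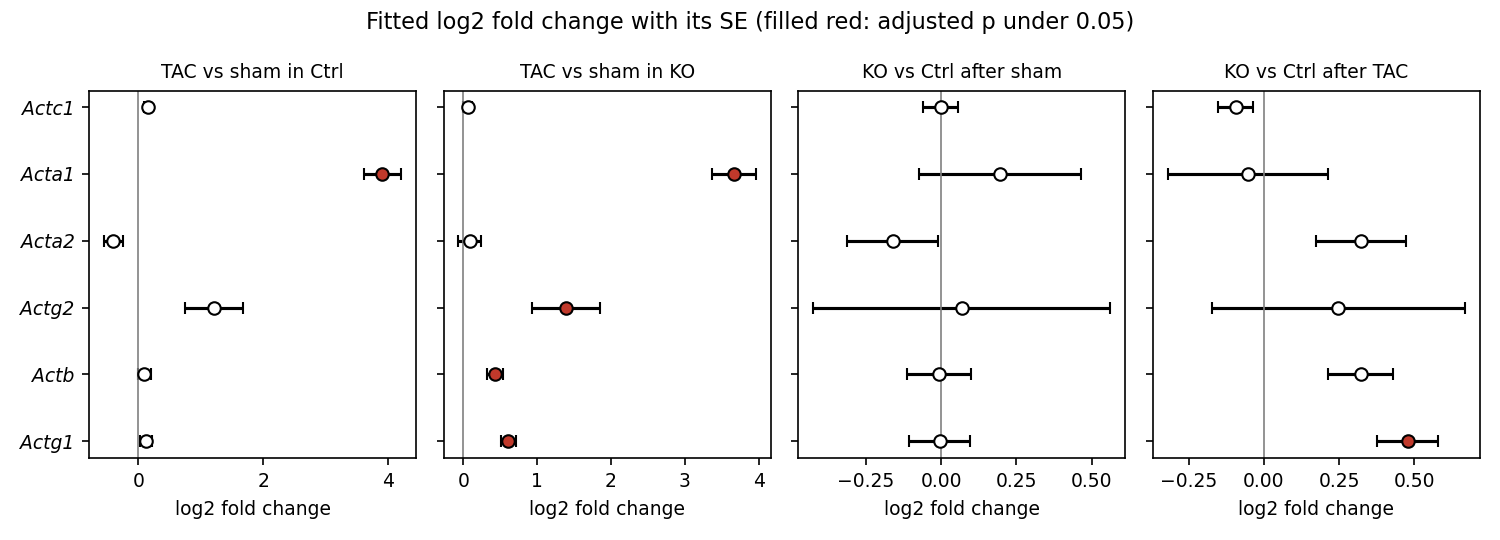
Fitted log2 fold change of each actin gene (horizontal axes, with a scale of its own in each panel) with its SE as bars in 4 comparisons; filled red points have an adjusted p under 0.05. Acta1 stands alone near 4 on the log2 scale in both TAC comparisons, and Actg1 is the one filled point among the 12 genotype comparisons.

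The counts of called genes in lists of other genes are to be read against the backgrounds just given, 20.0% called in Ctrl mice, 34.3% in KO mice and 2.68% between the TAC groups. Without KO TAC 4, the number called in KO mice differed by at most 1 in either direction for each of the 12 lists. Of 19 listed transcription regulators, all tested, 6 rose and 2 fell with TAC in Ctrl mice (median log2 fold change 0.13 against 0.00 for all genes), 6 rose and 1 fell in KO mice (0.12), and KO TAC against Ctrl TAC gave 0 calls. The 7 called in KO mice are near the background share. Srf itself went from 59.5 to 74.2 CPM in Ctrl mice (log2 0.32, adjusted p = 0.0297) and from 64.2 to 75.3 CPM in KO mice (0.23, adjusted p = 0.0832). Mrtfa rose in both genotypes (0.38, adjusted p = 0.00232, and 0.24, adjusted p = 0.0231). Myocd was at 26.3 and 29.9 CPM in Ctrl sham and Ctrl TAC hearts (0.18, adjusted p = 0.253), and Mrtfb was at -0.05 in Ctrl mice (SE 0.13, adjusted p = 0.821) and -0.33 in KO mice (SE 0.13, adjusted p = 0.0609). Mrtfb stood at 31.8 and 25.1 CPM in Ctrl TAC and KO TAC hearts (-0.34, SE 0.13, unadjusted p = 0.0164, adjusted p = 0.158). The list's 3 most abundant genes were Fhl2, Rhoa and Fhl1, a LIM protein. Fhl2 was at 0.08 in Ctrl mice (adjusted p = 0.390) and -0.05 in KO mice (adjusted p = 0.588). Rhoa was at 0.10 in Ctrl mice (adjusted p = 0.108) and rose by 0.12 in KO mice (adjusted p = 0.0288). Fhl1 rose by 1.27 in Ctrl mice (adjusted p = 0.000220) and 1.46 in KO mice (adjusted p = 2.75e-05).

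The partners of actin in the thin filament moved in both directions. Of 18 genes, 8 rose and 5 fell with TAC in Ctrl mice and 7 rose and 5 fell in KO mice, with 0 called between the TAC groups, against 20.0%, 34.3% and 2.68% of all genes. The most abundant, cardiac troponin T (Tnnt2), fell by 0.16 in Ctrl mice (adjusted p = 0.0378) and by 0.34 in KO mice (adjusted p = 8.47e-05). Tropomyosin Tpm1 was at -0.13 in Ctrl mice (adjusted p = 0.139) and fell by 0.17 in KO mice (adjusted p = 0.0274, and 0.0630 without KO TAC 4), and cardiac troponin I (Tnni3) fell by 0.43 (adjusted p = 0.000126) and 0.68 (adjusted p = 3.50e-07).

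Genes for actin turnover and assembly were mostly higher after TAC. Of 35 genes 21 rose and 1 fell with TAC in Ctrl mice (median 0.21) and 29 rose and 1 fell in KO mice (median 0.38), where 10.4% and 17.8% of all genes rose. Between KO TAC and Ctrl TAC 2 were called, both higher in KO, with 31 of 35 estimates above 0 and a median of 0.13 against 0.00 for all genes, of which 1.36% were called higher. Without KO TAC 4, as without both Ctrl TAC 2 and KO TAC 4, 0 of the 35 were called in that comparison. Among the 3 most abundant, the muscle cofilin Cfl2, which severs filaments, rose by 0.25 in Ctrl mice (adjusted p = 0.00202) and 0.40 in KO mice (adjusted p = 8.71e-06) and was 0.20 higher in KO TAC than Ctrl TAC hearts (adjusted p = 0.0425, and 0.0926 without KO TAC 4). Thymosin β4 (Tmsb4x), which holds actin monomers, rose in KO mice (0.40, adjusted p = 0.00265), and gelsolin (Gsn) was at -0.09 and -0.01 (adjusted p = 0.381 and 0.950). Of 11 actin-related and actin-like genes 8 were tested, of which 2 rose and 1 fell in Ctrl mice and 2 rose and 3 fell in KO mice. The dynactin components Actr1b and Actr1a were the 2 that rose, by 0.18 (adjusted p = 0.00679) and 0.15 (adjusted p = 0.00795) in Ctrl mice, and Actr10 was at 0.04 (adjusted p = 0.659).

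The next list held 13 smooth muscle contractile genes other than the members. With TAC, 2 of them rose and 1 fell in Ctrl mice, and 5 rose and 1 fell in KO mice. Caldesmon (Cald1) was the 1 gene called between the TAC groups, higher in KO TAC than Ctrl TAC hearts (0.26, adjusted p = 0.0210). The 3 and 6 called with TAC stand beside backgrounds of 20.0% and 34.3%, and the 1 between the TAC groups beside 2.68%. Cald1 was at 0.23 without KO TAC 4 (adjusted p = 0.0474), and without both Ctrl TAC 2 and KO TAC 4, 0 of the 13 were called (Cald1 0.20, adjusted p = 0.137). Smoothelin (Smtn) fell in both genotypes by 0.40 (adjusted p = 4.02e-05) and 0.48 (adjusted p = 2.20e-06), and Synpo2 was at 0.17 in both (adjusted p = 0.128 and 0.0891). The summed level of the 13 genes was 442 to 458 CPM in Ctrl sham and 406 to 481 in Ctrl TAC libraries. It was 418 to 451 CPM in KO sham and 416 to 464 in KO TAC libraries. Synpo2 and Smtn, with means of 150 and 132 CPM over all libraries, made up much of this sum. Of 6 pericyte markers 2 rose and 1 fell in each genotype, with Rgs5 at -0.03 and 0.04 (adjusted p = 0.733 and 0.668), Abcc9 lower by 0.64 and 0.78 (adjusted p = 4.94e-06 and 1.97e-07) and Pdgfrb higher by 0.26 and 0.36 (adjusted p = 0.0170 and 0.000920).

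Markers of other cell types moved beside the cytoplasmic actins. The 8 fibroblast markers summed to 579 to 706 CPM in Ctrl sham, 609.96 to 645 in KO sham, 1123 to 1594 in Ctrl TAC and 1828 to 1995 in KO TAC libraries, so the TAC groups did not overlap. Of these 8, 5 rose with TAC in Ctrl mice and 8 in KO mice, and 2 were higher in KO TAC than Ctrl TAC hearts, where 1.36% of all genes were (1 without KO TAC 4, and 1 without both Ctrl TAC 2 and KO TAC 4). Decorin (Dcn) was at 352 and 465 CPM in the TAC groups (0.40, adjusted p = 0.0828), Col3a1 at 319.8 and 418 CPM (0.39, adjusted p = 0.123) and Col1a2 at 229 and 303 CPM (0.40, adjusted p = 0.0375, and 0.0507 without KO TAC 4). Of 9 leukocyte markers 8 were tested, and 5 rose in Ctrl and 8 in KO mice, with sums of 155 to 207 and 156 to 206 CPM in the sham libraries of Ctrl and KO mice and 216 to 274 and 239 to 342 CPM in the TAC libraries of each. Lyz2 rose by 0.54 and 0.75 (adjusted p = 0.0389 and 0.00340), Csf1r by 0.29 and 0.59 (adjusted p = 0.0190 and 3.02e-05) and C1qa by 0.54 and 0.69 (adjusted p = 0.00110 and 5.63e-05). The T cell gene Cd3e had at most 19 counts in a library.

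Endothelial markers gave few calls, with 0 of 8 called in Ctrl mice and 1 in KO mice and sums of 642 to 826 CPM over all groups. Cdh5, Kdr and Pecam1, their 3 most abundant, had log2 fold changes of 0.07, 0.00 and 0.06 in Ctrl mice (adjusted p = 0.559, 0.998 and 0.692). Ventricular cardiomyocyte markers summed to 50733 to 58128 CPM in Ctrl sham, 51237 to 56151 in KO sham, 45095 to 48931 in Ctrl TAC and 38719.5 to 40788.5 in KO TAC libraries. Of these 8, 1 rose and 3 fell in Ctrl mice and 5 fell in KO mice, and 2 were lower in KO TAC than Ctrl TAC hearts, where 1.32% of all genes were. These were again 2 without KO TAC 4, and without both Ctrl TAC 2 and KO TAC 4 they were 0. Myh6, the adult myosin heavy chain, fell by 0.30 and 0.63 (adjusted p = 0.0126 and 7.84e-06), myoglobin (Mb) was at 0.01 and -0.13 (adjusted p = 0.960 and 0.0691), and Myl2 fell by 0.21 and 0.45 (adjusted p = 0.0272 and 3.26e-05). The part of these cell type markers in the levels of Actb and Actg1 was not tested.

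Acta1 is the actin of skeletal muscle, so markers of that tissue were counted too. Of 12 skeletal muscle markers 9 were tested, and their summed level was 21.3 to 26.6 CPM in Ctrl sham, 22.7 to 27.4 in KO sham, 18.6 to 28.7 in Ctrl TAC and 14.6 to 18.01 in KO TAC libraries. Of the 12, Cacna1s and Casq1 had at most 1206 and 1030 counts in a library, Myh4 121, Atp2a1 113, Tnnt3 68, Tnni2 61, Mylpf 53, Myh1 46, Actn3 26, Pvalb 22, Tnnc2 17 and Myh2 11. Of the 9, 2 rose and 1 fell in Ctrl mice and 0 rose and 2 fell in KO mice. Fast troponin T (Tnnt3) rose by 1.54 in Ctrl mice (adjusted p = 0.00980) and was at 0.95 in KO mice (adjusted p = 0.0664), and the fast myosin Myh4 was at 2.01 in Ctrl mice (adjusted p = 0.325). Cacna1s fell by 0.77 and 1.09 (adjusted p = 8.04e-05 and 8.00e-07), Casq1 was at 1.06 and 0.03 (adjusted p = 0.00216 and 0.934) and Atp2a1 at -0.08 and -1.43 (adjusted p = 0.940 and 0.0475). Between KO TAC and Ctrl TAC hearts 1 of the 9 was called, Casq1, lower by 0.83 (adjusted p = 0.0474), with a list median of -0.75, and 0 were called without KO TAC 4 (Casq1 -0.81, adjusted p = 0.0907) or without both Ctrl TAC 2 and KO TAC 4. The part of these markers in the level of Acta1 was not tested. Of 6 atrial markers 3 were tested, with Stard10 lower by 0.85 and 1.42 (adjusted p = 0.000316 and 8.36e-07), Dkk3 higher by 1.70 and 2.94 (adjusted p = 4.23e-05 and 6.77e-08) and Myl4 at 0.47 and 0.36 (adjusted p = 0.0360 and 0.0773). Dkk3 was also higher in KO TAC than Ctrl TAC hearts (1.03, adjusted p = 0.0164, and 0.0256 without KO TAC 4), and 0 of the 3 were called there without both Ctrl TAC 2 and KO TAC 4. The defining atrial genes Myl7, Sln and Bmp10 had at most 55, 9 and 10 counts in a library.

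The genes whose log2 CPM most resembled each member over the 16 libraries were named by Pearson r, as a description in which the 4 group means carry much of the value. Acta1 was most like Sorl1 (0.989), Ccn1 (0.988) and Gnao1 (0.987), and for deviations from group means like Mras (0.889), Stab1 (0.854) and Ctsz (0.852). Actg1 was most like Btg2 (0.976), Calm2 (0.952) and Fosl2 (0.947), and within groups like Ugcg (0.940), Btg2 (0.911) and Nr4a1 (0.893). Actb was most like Bhlhe40 (0.958), Fosl2 (0.928) and Actg1 (0.925), and within groups like Bhlhe40 (0.915), Fosl2 (0.851) and Map4k4 (0.844). Bhlhe40 and Fosl2 thus headed the list of Actb on both measures.

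For Actg2 the most similar genes were Tagln (0.909), Sh3pxd2b (0.861) and Flna (0.861), and within groups Myl9 (0.862), Tagln (0.860) and Ksr1 (0.831). Tagln and Myl9 encode proteins of the smooth muscle contractile apparatus. Acta2 was most like Wdfy2 (0.727), Ksr1 (0.719) and C7 (0.717) over the libraries. Actc1 was most like Trmt61a (0.870), Srl (0.858) and BC003965 (0.841), and within groups like Tdrd7 (0.836), Trmt61a (0.828) and Jmjd4 (0.802).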

How the data were processed

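RNA-seq counts per gene were used as deposited for 16 libraries. The authors' processing notes name cutadapt 2.3, FastQC, HISAT2 2.1.0, edgeR 3.26.1 and GRCm38, and the counting program, its annotation and its use of strand are not given in the sources used here. The counts were deposited as whole numbers and not normalized, and 290 genes hold 1 count in every library. Libraries held 53169437 to 79404714 counts. Intervals on shares cover counting error only.

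Genes kept by filterByExpr (18275, minimum count 10) were scaled by TMM and tested with edgeR 4.0.16 (robust quasi-likelihood, R 4.3.3, limma 3.58.1) on all 16 libraries with 1 mean per group, in 5 comparisons, and called at a Benjamini-Hochberg adjusted p under 0.05 over all genes. The SE is the log2 fold change over the square root of F. The script was tested on simulated data. CPM used TMM factors, and CPM per kb the exonic length in GENCODE M21. Composition was compared by exact permutation tests (SciPy 1.17.1).

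All 6 members are named. From each list (transcription regulators, thin filament partners, turnover and assembly, actin-related genes, smooth muscle contractile genes, and markers of pericytes, fibroblasts, endothelium, leukocytes, ventricle, atrium and skeletal muscle) the 3 genes with the highest mean CPM are named, with Srf, Myocd, Mrtfa and Mrtfb always. Genes named outside this rule were taken after their values were seen. For likeness, the 3 genes with the highest r are named, except that the genes most like Acta2 within groups are not reported here. The members and lists were chosen with earlier results of these data known. Alternatives were DESeq2 1.42.0, other scalings and filters, terms for animal numbers, and libraries left out. The sum of Actg1 with its pseudogenes, and the lists without KO TAC 4, were added after seeing the data. Replicate numbers follow the order of samples and pair nothing.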

Additional observations from a re-analysis of the deposited data

Results flagged for a closer look

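A library that stands apart by Dixon's criterion was sought in 60 tests, each on 1 measure in 1 group of 4 libraries. These tests reuse the same libraries. Only 1 was found, and chance gives about 1 in every 20 tests, so this is no more than chance would give. The summed actin CPM of KO sham 4 was 7043, below the other 3 KO sham libraries, with a gap of 0.883 of the group's range, above the 95% limit for 4 values.

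The TAC effect on the Actg1 share of summed actin counts differed between genotypes by 0.7314 percentage points (exact permutation p = 0.0469 over 4900 relabellings). It did not pass adjustment over the 45 composition tests (adjusted p = 0.117), and its p was at or over 0.05 in 12 of the 18 alternatives with a test. It was 0.831 points without KO TAC 4 (exact permutation p = 0.0392), 0.632 without KO sham 3 (p = 0.0980) and 0.529 without Ctrl sham 2 (p = 0.122).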

How the results depend on the processing

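No paired analysis was possible because the replicate numbers follow sample order and pair no mice. For TAC in Ctrl mice, 3 actin genes were called with library totals and 3 with DESeq2 in place of 1, and 1 to 2 when single libraries were left out. Between KO TAC and Ctrl TAC, 2 were called with DESeq2 in place of 1, 0 at an adjusted p under 0.01, 0 with the term for animal numbers starting with 25, 0 without Ctrl TAC 2 and KO TAC 4, and 0 to 1 with single libraries left out. The causes were not tested. With a term for animal numbers starting with 33, the log2 difference of KO sham from Ctrl sham turned to -0.0791 for Acta1 and -0.153 for Actg2, and the Acta1 interaction to 0.0261.

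Single libraries left out turned the sign of other results that were not called. For KO sham against Ctrl sham the log2 difference then ran from -0.0423 to 0.0396 in Actc1, from -0.0078 to 0.408 in Acta1, from -0.265 to 0.316 in Actg2, from -0.0937 to 0.0649 in Actb and from -0.061 to 0.0956 in Actg1. For KO TAC against Ctrl TAC it ran from -0.202 to 0.0899 in Acta1, and the Actg2 interaction from -0.068 to 0.510. The Acta1 share differed by -1.94 to 2.19 percentage points between KO TAC and Ctrl TAC, and the Actb share of the cytoplasmic pair by -1.11 to 0.611 points between Ctrl TAC and Ctrl sham. Within animal numbers starting with 3, which leave 1 Ctrl TAC library and no test, that last difference was 1.54 in place of -0.42, the Acta1 share differed by -1.22 points between the TAC groups in place of 0.26 (-0.566 without Ctrl TAC 2 and KO TAC 4), and the Actg2 share also turned below 0 for TAC in Ctrl mice. Over all alternatives and comparisons, 781 values of single genes kept direction and side of the threshold, 24 changed sign, 13 lost a call and 10 gained one. Some of these alternatives left out a library that the comparison does not use, or changed the threshold alone, so their direction could hardly change. Depth limits Actg2, with 5 to 79 counts.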
